A study of Mus musculus with 4 samples.

Results

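Nuclear receptors are transcription factors that bind DNA and, in many cases, a small lipid-soluble ligand such as a steroid, a retinoid, a thyroid hormone, a vitamin D metabolite, a fatty acid or a bile acid. The androgen receptor is the family member on which prostate epithelium depends, but the gland also holds estrogen, glucocorticoid, retinoid and orphan receptors, and several of these share DNA elements, heterodimer partners and cofactors. The genes described here were a written list of 43 mouse nuclear receptor genes that leaves out the androgen receptor. No rule picked a gene by its values, but the list was chosen with earlier results of these data known. Of the 43, 41 were measured by a probe set with 1 gene symbol, among 22180 genes measured in that way. Nr1h2, which encodes the oxysterol receptor LXR beta, and Nr2e3, a photoreceptor orphan receptor, had no such probe set.

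Expression was measured in the prostate of 4 male C57BL/6 mice, an inbred strain, with 1 Affymetrix whole-transcript array per mouse. The vasectomy group held 2 mice in which the vas deferens had been interrupted, and the sham group held 2 mice that had sham surgery. The sample labels gave the lateral prostate, surgery at 16 weeks of age and harvest at 24 weeks of age, and they also gave 24 weeks as the time after surgery, whereas the methods of the study gave an earlier surgery and the dorsolateral prostate. The methods also named a human array, while the platform annotation lists mouse genes. Both groups were of 1 strain, and whole tissue was used, so that a lower cell number and less RNA per cell cannot be told apart. Of the 13 measured markers of prostate luminal cells, 12 in vasectomy mouse 2 and 13 in each of the other 3 arrays were above the level used here as background, and 10 of 13 were lowest in vasectomy mouse 2. Sbp, a secreted protein of the prostate, had the widest range of these markers, with 12.37 and 3.37 in vasectomy, against 12.55 and 12.46 in sham. Most luminal markers moved far less, such as Krt8, with 8.91 and 8.65 in vasectomy, against 8.90 and 8.80 in sham. Pbsn, Tgm4 and Cd24a were not lowest in vasectomy mouse 2. The arrays had medians of 4.80 and 4.82 in vasectomy and 4.80 and 4.82 in sham. The array of vasectomy mouse 2 stood apart (its correlations with the remaining arrays were 0.970 to 0.976, and those among the remaining arrays 0.984 to 0.989). In that array the median of 8 seminal vesicle markers was 8.66 on the log2 scale, against 3.93 in vasectomy mouse 1 and 4.40 and 4.03 in the sham mice, and 8 of the 8 were above the background level there, against 3 in vasectomy mouse 1 and 4 in each sham mouse. The brightest of these markers were also high in sham mouse 1. Svs5 had 10.34 and 13.40 in vasectomy, against 13.06 and 10.78 in sham. Svs2 had 10.26 and 13.17 in vasectomy, against 12.49 and 7.62 in sham. Others, such as Sva, were low in sham mouse 1 (2.38, against 7.89 in vasectomy mouse 2). Values below are log2 values of robust multi-array average (RMA) signal, in which 1 unit is a doubling, and each array is given by its group and mouse number.

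No receptor differed between vasectomy and sham at an adjusted p under 0.05 (limma with Benjamini-Hochberg adjustment over all genes), and the lowest adjusted p of the receptors was 1. The share of all genes called was 0%. At an unadjusted p under 0.05, 0 of the 41 receptors passed, where 453 genes, or 2.04% of those tested, did. The unmoderated test named in the study's methods also gave 0 receptors, both unadjusted and adjusted. With 2 mice per group an exact permutation test of a single gene cannot go below p = 0.333. The receptors' median difference, vasectomy minus sham, was -0.01, against 0.00 over all genes, and 20 receptors had a higher and 21 a lower mean in vasectomy.

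Both vasectomy arrays lay above both sham arrays for 4 receptors (Nr3c1, Thra, Nr5a1 and Hnf4g), which was 9.76% of the 41, beside 12.5% of all genes. Both lay below both sham arrays for 3 receptors (Esrrg, Nr1h3 and Nr1h4), which was 7.32% of the 41, beside 12.0% of all genes. Neither share was above that of the genes at large. The median size of the difference was 0.11 for the receptors and 0.12 for all genes. The limma p-values set each difference against the spread between these 4 mice within groups, moderated over all genes.

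**Figure D1:**
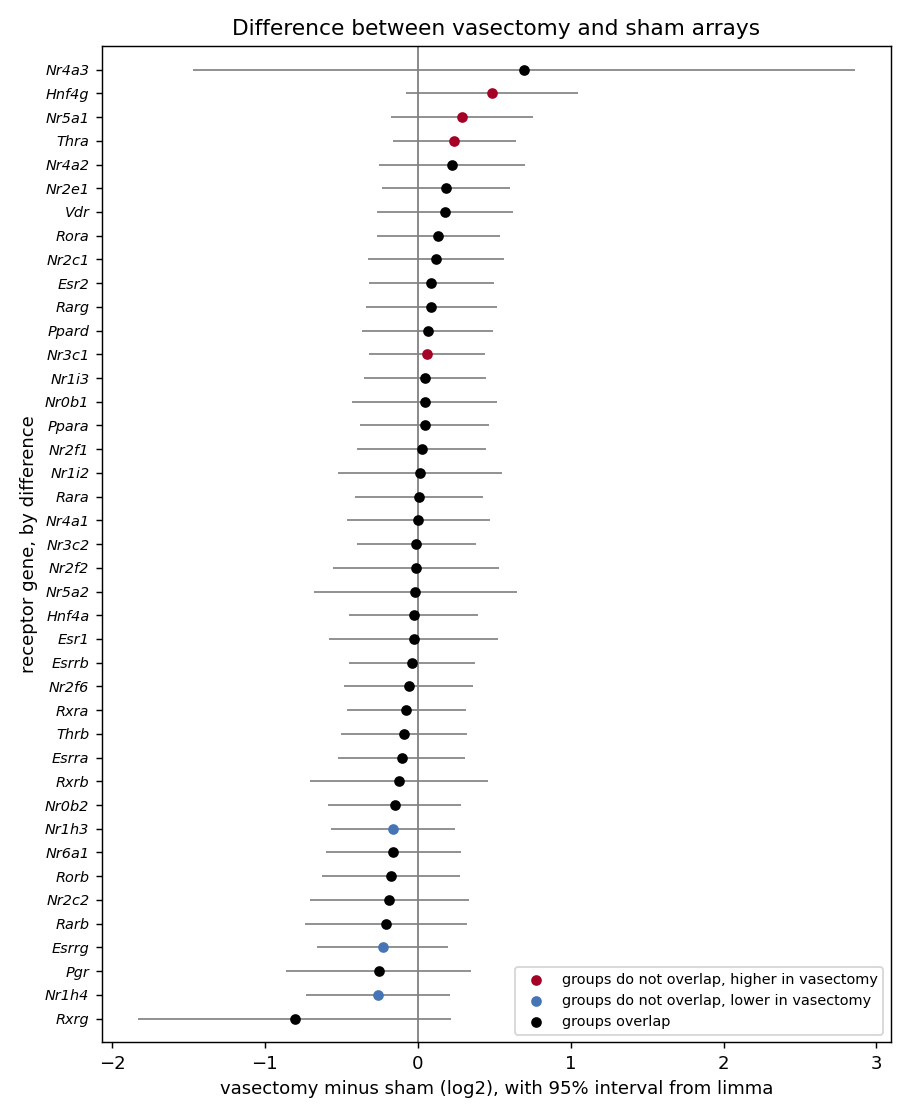
Difference between vasectomy and sham (log2, horizontal axis) for the 41 measured receptors, with bars for the 95% interval of limma and colours for whether the groups overlap. Every interval crosses 0, and the widest bar belongs to Nr4a3.

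With no detection calls to use, the level of each receptor was set against the 95th percentile of mean signal over 1394 genes for olfactory and vomeronasal receptors, called the background stand-in here, most of which belong to sensory epithelium. The stand-in was 4.625. In all, 31 receptors (75.6% of 41) had a mean above it, as did 13556 genes (61.1%), and 29 were above it in every array. The exceptions among the 31 were Nr4a3, at 4.58 in vasectomy mouse 1, and Rxrg, at 4.60 in vasectomy mouse 2. Of the 41, 22 were also above the stricter 99th percentile of 5.614, and 26 were above the median gene at 5.17. The lowest receptors above the stand-in were Hnf4a, with 4.76 and 4.92 in vasectomy and 4.76 and 4.97 in sham, and Esrrb, with 4.73 and 4.80 in vasectomy and 4.69 and 4.91 in sham. The highest below it were Nr0b2, with 4.52 and 4.22 in vasectomy and 4.50 and 4.54 in sham, and Nr1h4, with 4.22 and 4.12 in vasectomy and 4.62 and 4.24 in sham. The order of the receptors is an order of array signal, which also depends on each gene's probes, and neighbours in it mostly overlap over the 4 arrays.

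**Figure D2:**
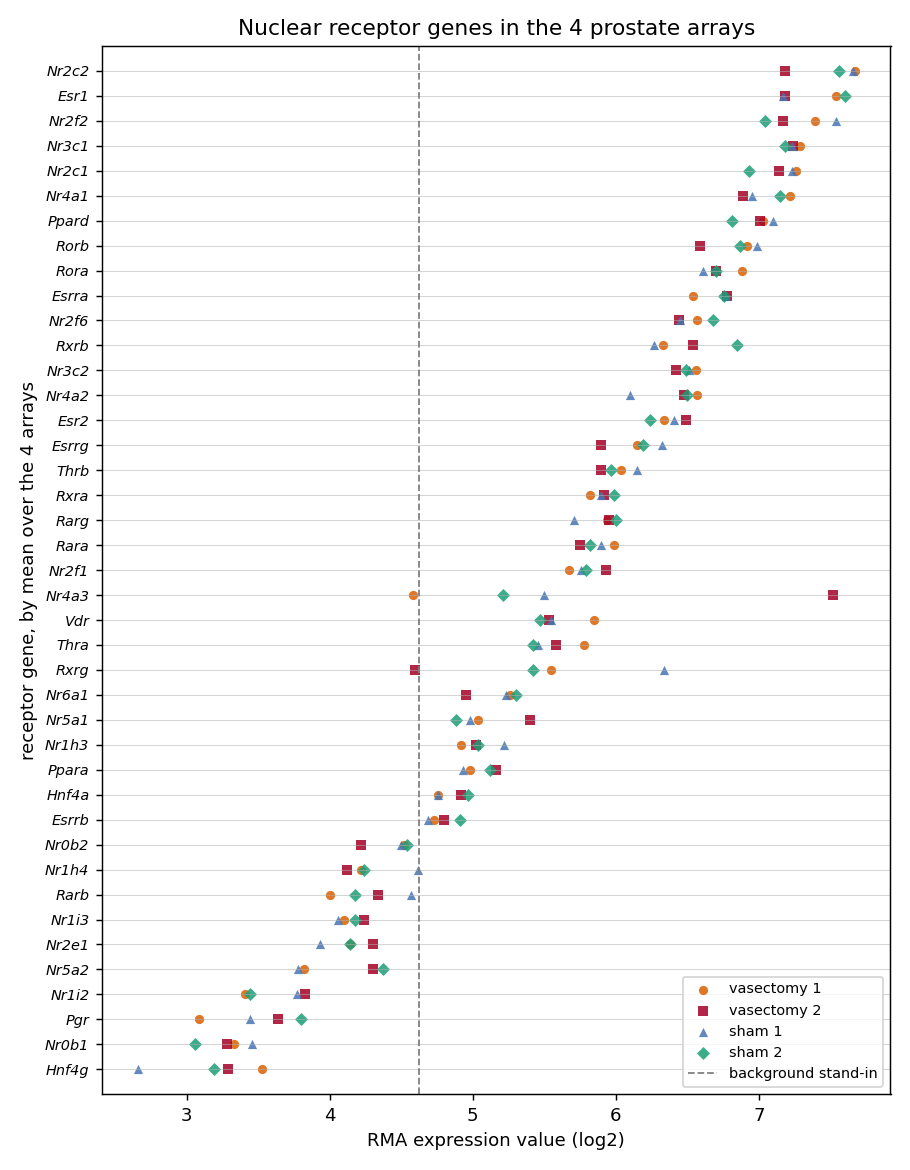
Level of each of the 41 receptors in the 4 arrays (log2 RMA value, horizontal axis), ordered by mean, with the background stand-in of 4.625 as a dashed line. Nr4a3 and Rxrg spread far more than their neighbours.

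Among steroid receptors, Esr1, which encodes estrogen receptor alpha, was the second of all receptors by signal. It had 7.54 and 7.18 in vasectomy, against 7.17 and 7.60 in sham. The groups overlapped in both directions, and the difference was -0.03 (95% interval -0.58 to 0.53). Esr2, estrogen receptor beta, known from prostate epithelium, had 6.34 and 6.49 in vasectomy, against 6.41 and 6.24 in sham, and its difference was 0.09. Nr3c1, the glucocorticoid receptor, had 7.29 and 7.24 in vasectomy, against 7.23 and 7.18 in sham. These 4 values spanned 0.11, and 97.1% of genes had a range as large or larger, so that the higher placing of both vasectomy mice came to a difference of 0.06 (SE 0.15). Nr3c2, the mineralocorticoid receptor, had 6.56 and 6.42 in vasectomy, against 6.51 and 6.49 in sham, a range of 0.14, and it was measured by 2 probe sets of which the brighter was used. Pgr, the progesterone receptor, was below the stand-in at 3.09 and 3.64 in vasectomy, against 3.44 and 3.80 in sham, and its difference of -0.26 was among the 6 largest negative ones.

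The estrogen-related receptors, orphan regulators of energy metabolism, had lower means in vasectomy in 3 of 3 cases. Esrra had 6.54 and 6.78 in vasectomy, against 6.77 and 6.76 in sham. Esrrg had 6.15 and 5.90 in vasectomy, against 6.32 and 6.19 in sham. Of these, Esrrg was the one whose groups did not overlap, with a difference of -0.23 (SE 0.17, 95% interval -0.66 to 0.20), or -0.11 without vasectomy mouse 2.

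The retinoid receptors held the most negative difference of the list. Retinoic acid receptors bind as heterodimers with an RXR, and RXRs also partner the thyroid, vitamin D, PPAR and LXR receptors. Rxra had 5.82 and 5.92 in vasectomy, against 5.90 and 5.99 in sham, a range of 0.17. Rxrb had 6.33 and 6.54 in vasectomy, against 6.27 and 6.85 in sham. Rxrg had 5.55 and 4.60 in vasectomy, against 6.34 and 5.42 in sham. Its mean over all arrays was 5.48, under the stricter background level of 5.614, and the value of 4.60 was under the stand-in. The vasectomy mean of Rxrg was 5.08 ± 0.67 and the sham mean 5.88 ± 0.65 (SD, n = 2), a difference of -0.81 (SE 0.42, 95% interval -1.83 to 0.22, adjusted p = 1 by limma). The Rxrg groups overlapped, since the lower sham array was below the higher vasectomy array, and leaving out each array in turn gave -1.28 to -0.33, with -0.33 when vasectomy mouse 2 was left out. Rarg had 5.94 and 5.95 in vasectomy, against 5.71 and 6.00 in sham. Rara had 5.99 and 5.75 in vasectomy, against 5.90 and 5.82 in sham, and neither RAR gene differed by more than 0.09. Rarb, itself a well-known target of retinoic acid, was below the stand-in, with 4.0 and 4.34 in vasectomy and 4.57 and 4.18 in sham.

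Thra, thyroid hormone receptor alpha, had 5.78 and 5.58 in vasectomy, against 5.46 and 5.42 in sham. The groups did not overlap, and the difference was 0.24 (SE 0.16, 95% interval -0.16 to 0.64), or 0.14 without vasectomy mouse 1. Thrb, the beta receptor, had 6.04 and 5.90 in vasectomy, against 6.15 and 5.97 in sham. Vdr, the vitamin D receptor, had 5.85 and 5.53 in vasectomy, against 5.55 and 5.47 in sham, and its groups overlapped.

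Among sensors of lipids, sterols and bile acids, Ppard, the broadly expressed PPAR, was the one with the highest signal, at 7.03 and 7.01 in vasectomy, against 7.10 and 6.81 in sham. Ppara, which governs fatty acid oxidation in liver, had 4.98 and 5.16 in vasectomy, against 4.93 and 5.12 in sham. Nr1h3, LXR alpha, had 4.92 and 5.02 in vasectomy, against 5.22 and 5.04 in sham, without overlap. Its difference was -0.16. Nr1h4, the bile acid receptor FXR, Nr1i2, the xenobiotic receptor PXR, and Nr1i3, the related receptor CAR, are best known from liver and intestine. All 3 were below the stand-in, with Nr1i2 between 3.41 and 3.83 and Nr1i3 between 4.06 and 4.24 over the 4 arrays, and Nr1h4 differing by -0.26 without overlap, or by -0.07 when sham mouse 1 was left out.

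For most of the remaining orphan receptors the groups overlapped. Nr2c2, the testicular receptor TR4, had the highest signal of the list, with 7.67 and 7.18 in vasectomy and 7.66 and 7.56 in sham, and its low array was vasectomy mouse 2. Nr2c1, its relative TR2, had 7.26 and 7.14 in vasectomy, against 7.23 and 6.93 in sham. Nr2f2, also called COUP-TFII, had 7.39 and 7.17 in vasectomy, against 7.54 and 7.04 in sham. The sham pair of Nr2f2 enclosed both vasectomy mice. Nr2f1 had 5.67 and 5.93 in vasectomy, against 5.76 and 5.79 in sham. Nr2f6 had 6.57 and 6.44 in vasectomy, against 6.45 and 6.68 in sham. The NR2F differences were between -0.06 and 0.03. Rora, an activator of the clock gene Bmal1, had 6.88 and 6.70 in vasectomy, against 6.61 and 6.70 in sham. Rorb had 6.92 and 6.59 in vasectomy, against 6.99 and 6.87 in sham. The pair of ROR genes thus had differences of opposite sign, 0.14 for Rora and -0.18 for Rorb, each with overlapping groups. Nr6a1, the germ cell nuclear factor, had 5.26 and 4.95 in vasectomy, against 5.23 and 5.30 in sham. Nr5a1, the steroidogenic factor SF-1, had 5.04 and 5.40 in vasectomy, against 4.98 and 4.88 in sham, without overlap. Its difference was 0.29 (SE 0.19), or 0.11 without vasectomy mouse 2, and all 4 values lay under the stricter background level. Hnf4g had 3.53 and 3.29 in vasectomy, against 2.66 and 3.19 in sham, without overlap, and its difference of 0.49 (SE 0.23, 95% interval -0.08 to 1.05) was measured wholly below the stand-in and was 0.22 without sham mouse 1. Nr2e1, the neural stem cell receptor Tlx, had 4.14 and 4.30 in vasectomy, against 3.93 and 4.14 in sham, also below it, and differed by 0.19. Nr0b1, Nr0b2 and Nr5a2 made up the rest of the 10 receptors below the stand-in, with Nr0b1 between 3.06 and 3.46 and Nr5a2 between 3.78 and 4.37 over the 4 arrays.

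The NR4A receptors are orphan immediate early genes, induced within minutes to hours by growth factors, stress and cAMP. Nr4a1, also called Nur77, had 7.22 and 6.89 in vasectomy, against 6.95 and 7.15 in sham. Nr4a2, also called Nurr1, had 6.57 and 6.48 in vasectomy, against 6.10 and 6.50 in sham. Nr4a3, also called NOR-1, had 4.58 and 7.52 in vasectomy, against 5.50 and 5.21 in sham. The 2 vasectomy mice thus lay on opposite sides of the sham mice, with vasectomy mouse 1 the lowest and vasectomy mouse 2 the highest array. The value of vasectomy mouse 1 was under the stand-in of 4.625, and both sham values were under the stricter level of 5.614. The Nr4a3 range of 2.94, which is 7.67-fold, was matched or exceeded by 0.361% of genes. The vasectomy mean of Nr4a3 was 6.05 ± 2.08 and the sham mean 5.36 ± 0.21 (SD, n = 2), and the difference of 0.70 (SE 0.88, 95% interval -1.47 to 2.86, adjusted p = 1 by limma) was far smaller than the vasectomy spread. Without vasectomy mouse 2 it was -0.78, and over the removal of each array in turn it lay between -0.78 and 2.17.

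**Figure D3:**
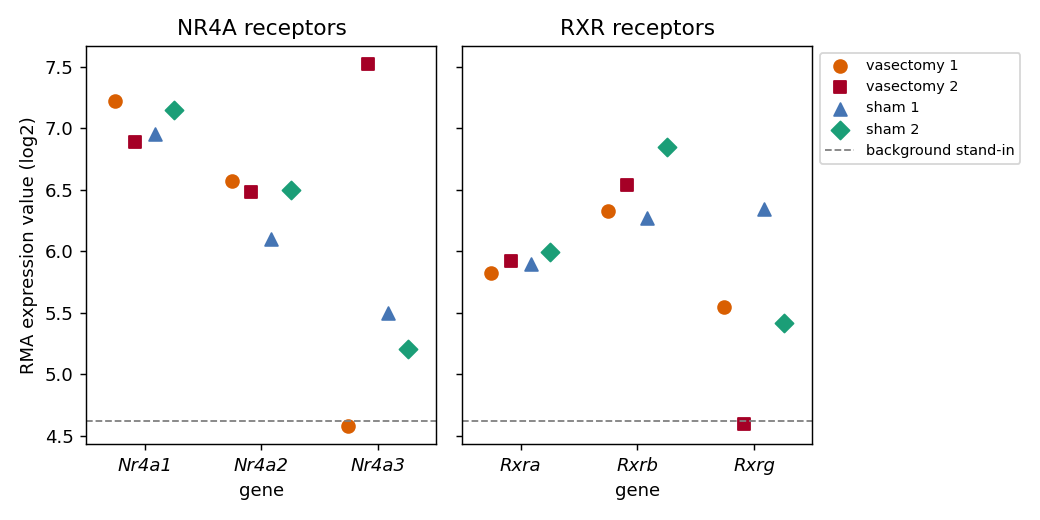
Levels of the 3 NR4A genes and the 3 RXR genes in each array (log2 RMA value, vertical axis). Nr4a3 reached 7.52 in vasectomy mouse 2 and 4.58 in vasectomy mouse 1, whereas Nr4a1, Nr4a2, Rxra and Rxrb stayed within 0.58.

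Vasectomy mouse 2 was also the array with the lowest Rxrg, at 1.17 below the mean of the other 3 arrays, while its Nr4a3 was 2.42 above that mean. The summed level of the 8 measured seminal vesicle markers ran between 11.40 and 14.64 in vasectomy and between 11.49 and 13.96 in sham, with 8 of 8 highest in vasectomy mouse 2. The higher sham level was that of sham mouse 1. The 9 measured macrophage markers were all highest in that mouse, where 9 of 9 were above the stand-in, with summed levels of 9.21 to 10.33 in vasectomy and 9.09 to 9.53 in sham. The 8 measured adipocyte markers, of which 6 were above the stand-in in that mouse and 6 highest in it, summed to 8.23 to 10.19 in vasectomy and 7.97 to 7.99 in sham. The 12 measured smooth muscle markers were highest in that mouse in 12 of 12 cases, with summed levels of 13.86 to 14.16 in vasectomy and 13.58 to 13.74 in sham. Of the fibroblast and nerve markers, 9 of 11 and 6 of 6 were highest in that mouse, as were 7 of 10 epididymis and vas deferens markers. The remaining marker lists did not share this. Highest in that mouse were 2 of 9 endothelial, 1 of 7 basal, 2 of 7 lymphocyte, 3 of 8 skeletal muscle and 2 of 6 urothelial markers. Of the 13 measured prostate luminal markers, 10 were lowest in that mouse, as Rxrg was, while Pbsn, Tgm4 and Cd24a were not. The luminal median was 10.33 and 9.34 in vasectomy, against 10.30 and 10.32 in sham. Krt18 was the gene at the median in the other 3 arrays, and it had 9.95 in vasectomy mouse 2. The step in the median is thus not the change of a typical luminal marker. Summed luminal levels were 14.28 to 15.12 in vasectomy and 15.06 to 15.07 in sham. The widest ranges among these markers were those of Sbp (9.18), Spink5 (7.10) and Msmb (2.92). The median over these markers of that mouse minus the mean of the other 3 arrays was -0.38. Whether these cell types had a part in the Nr4a3 and Rxrg values was not tested. Of 16 other immediate early genes, 3 were highest and 6 were lowest in vasectomy mouse 2. Jun, a subunit of AP-1, had 7.84 and 6.99 in vasectomy, against 7.78 and 7.18 in sham. Btg2, an antiproliferative early gene, had 7.41 and 6.34 in vasectomy, against 8.07 and 6.79 in sham, so that mouse 2 was the lower mouse of each group for both genes. Atf3, a stress-induced factor, had 7.70 and 7.17 in vasectomy, against 7.23 and 7.06 in sham.

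Over the list as a whole the spread was ordinary. The receptors' median range over the 4 arrays was 0.35, against 0.39 for all genes. Ranges of at least 1 were seen for 2 receptors, Nr4a3 and Rxrg, which is 4.88% of 41 and close to the 4.71% of all genes. Ranges under 0.5 were seen for 31 receptors (75.6%), against 66.7% of all genes. Vasectomy mouse 2 alone was highest for 9 receptors (22%) and lowest for 12 (29.3%), where it was highest for 28% and lowest for 27.1% of all genes.

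**Figure D4:**
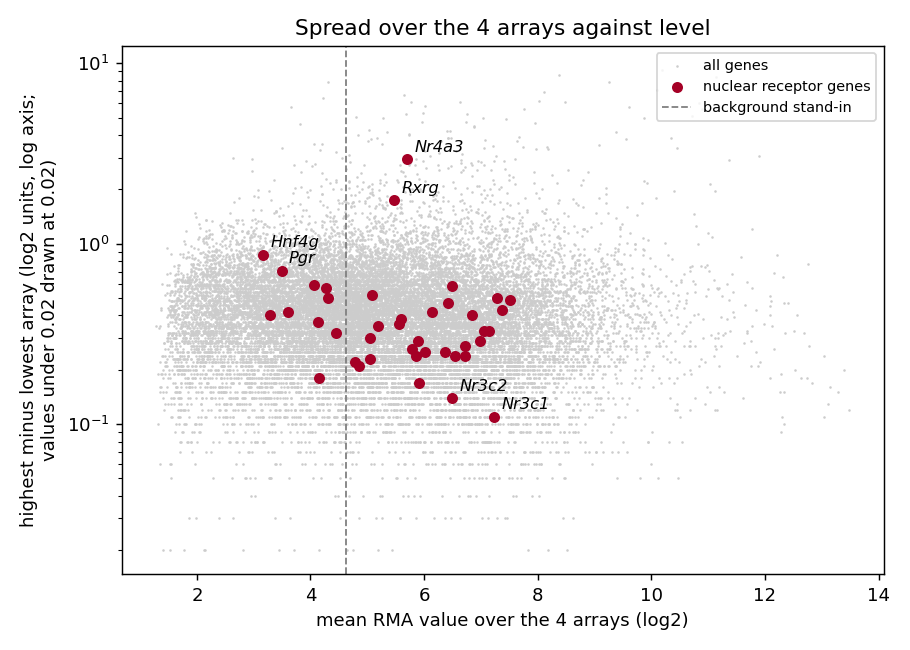
Range over the 4 arrays (log2 units, logarithmic vertical axis) against mean level (log2 RMA value, horizontal axis), with all genes in grey and receptors in red. Nr4a3 and Rxrg are the receptors with a range of at least 1, and Nr3c1 and Nr3c2 lie low at 0.11 and 0.14.

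The promoters of the 3 NR4A genes are shown because cAMP, acting through CREB, is a textbook inducer of the family, and that of Rxrg because it had the most negative difference. Windows of 250 bases upstream of the annotated start were taken from RefSeq (GRCm38.p6), 5′ to 3′ on the gene's strand, with 39 of 43 receptors matched in 58 windows and Nr3c1, Thra, Nr5a1 and Hnf4g not in the table used. In the NR4A sequences capitals mark CGTCA and its reverse complement TGACG, the half-site of the cAMP response element. Rxrg had a second window, which held none of the motifs searched and is not shown. In the Rxrg window shown capitals mark AAAGGTCA (reverse complement TGACCTTT), the element bound by NR4A monomers, which contains the receptor half-site AGGTCA.
Nr4a1, chr15:101266596-101266845, plus strand: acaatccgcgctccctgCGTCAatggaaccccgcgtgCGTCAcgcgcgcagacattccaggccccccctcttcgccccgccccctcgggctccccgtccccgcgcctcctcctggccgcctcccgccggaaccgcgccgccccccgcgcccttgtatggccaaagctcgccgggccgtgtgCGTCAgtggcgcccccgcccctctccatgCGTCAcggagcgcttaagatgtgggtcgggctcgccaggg
Nr4a2, chr2:57124004-57124253, minus strand: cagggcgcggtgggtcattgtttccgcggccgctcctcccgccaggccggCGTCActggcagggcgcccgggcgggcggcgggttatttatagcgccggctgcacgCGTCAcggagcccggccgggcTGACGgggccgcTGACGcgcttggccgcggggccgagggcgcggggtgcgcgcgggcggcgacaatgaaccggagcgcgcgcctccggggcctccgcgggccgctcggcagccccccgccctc
Nr4a3, chr4:48045055-48045304, plus strand: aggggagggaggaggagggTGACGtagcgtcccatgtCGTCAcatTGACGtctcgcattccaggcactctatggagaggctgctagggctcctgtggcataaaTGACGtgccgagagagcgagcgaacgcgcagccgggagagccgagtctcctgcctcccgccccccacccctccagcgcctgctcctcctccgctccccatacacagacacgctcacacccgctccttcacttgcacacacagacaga
Rxrg, chr1:167618015-167618264, plus strand: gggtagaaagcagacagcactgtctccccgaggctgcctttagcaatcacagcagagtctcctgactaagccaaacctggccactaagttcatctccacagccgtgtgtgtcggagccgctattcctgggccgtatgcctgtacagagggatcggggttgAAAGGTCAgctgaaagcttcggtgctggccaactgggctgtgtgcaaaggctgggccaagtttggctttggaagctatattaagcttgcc

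Each NR4A window held 4 CRE half-sites on either strand. They were the 3 receptor windows with 4 or more (5.17% of 58), where 45 of all 32851 windows had as many (0.137%). The cut of 4 equals the count in these windows, which were picked for display. These shares therefore describe the NR4A windows and not receptor promoters at large. At least 1 half-site was present in 13 of the 58 receptor windows (22.4%), against 17.8% of all windows. The receptor windows had a median GC content of 58.4%, against 52.4% for all windows, and the half-site itself contains CG. The NR4A windows had 74.4% (Nr4a1), 80% (Nr4a2) and 63.6% (Nr4a3). AGGTCA occurred in 8 of 58 receptor windows (13.8%), against 14% of all windows, and AAAGGTCA in 2, those of Rxra and Rxrg (3.45%), against 1.34% of all windows. The count of 4 was the same in the 3 genes, whose ranges over the arrays were 0.33 for Nr4a1, 0.47 for Nr4a2 and 2.94 for Nr4a3. A match of letters is a description of the sequence and does not show binding.

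Nuclear receptors act through cofactors, ligand supply and target genes, which were counted as 15 lists. In no list did any gene pass the adjusted p of 0.05 (0 of all genes did). Coactivators, which help receptors to open chromatin, had a median difference of 0.00, with 8 of 17 measured genes higher and 8 lower. Ncoa4, a coactivator that also carries ferritin to lysosomes, had 9.84 and 8.18 in vasectomy, against 9.85 and 8.96 in sham. The acetyltransferase gene Crebbp had 9.31 and 9.16 in vasectomy, against 9.35 and 9.05 in sham. Corepressors were lower in 8 of 10, with a median of -0.04. Lcor, a corepressor of ligand-bound receptors, had 7.94 and 7.68 in vasectomy, against 7.64 and 7.42 in sham, without overlap. Ctbp1 had 8.70 and 8.45 in vasectomy, against 8.53 and 8.35 in sham, and Nrip1 had 8.12 and 7.88 in vasectomy, against 8.39 and 7.86 in sham. Steroid receptor chaperones, which hold the unliganded receptors ready for hormone, were higher in 7 of 9, with a median of 0.10, and 3 of the 9 lay higher without overlap, as did 12.5% of all genes. Hsp90aa1 had 8.11 and 8.52 in vasectomy, against 8.10 and 7.92 in sham. Fkbp4, a receptor cochaperone, had 9.22 and 9.60 in vasectomy, against 9.09 and 9.29 in sham. The Hsp70 family gene Hspa8 had 11.66 and 11.95 in vasectomy, against 11.68 and 11.73 in sham. Of the 9 chaperone genes, 6 were highest in vasectomy mouse 2.

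Retinoid supply and breakdown had a median of 0.14, with 8 of 14 genes higher, but the median was -0.05 among its genes above the stand-in and -0.12 among those above the median level. Crabp1, which binds retinoic acid in the cytoplasm, had 7.14 and 5.38 in vasectomy, against 8.22 and 7.24 in sham. The groups did not overlap, and its difference of -1.47 (SE 0.61) was the largest in size of these lists, with the lowest array again vasectomy mouse 2, as for Rxrg. Aldh1a1, which makes retinoic acid, had 9.19 and 8.92 in vasectomy, against 9.67 and 8.98 in sham. Dhrs3, which turns retinal back to retinol and is itself induced by retinoic acid, had 7.91 and 7.40 in vasectomy, against 8.25 and 7.47 in sham, and the groups of both genes overlapped. Thyroid hormone supply was lower in 5 of 6, with a median of -0.09. The transporter gene Slc16a10 had 6.88 and 6.63 in vasectomy, against 6.70 and 7.04 in sham, and Crym, a thyroid hormone binding protein, 5.67 and 5.64 in vasectomy, against 5.64 and 5.72 in sham. Vitamin D supply was higher in 4 of 6, with a median of 0.07. Its largest difference, -0.28, was that of Cyp24a1, which breaks down the active hormone and was below the stand-in on average, at 3.76 and 4.47 in vasectomy, against 4.26 and 4.52 in sham. Cyp27a1 had 6.58 and 6.66 in vasectomy, against 6.80 and 6.59 in sham, and Cyp27b1, which makes the active hormone, had 4.99 and 4.82 in vasectomy, against 4.79 and 4.72 in sham, without overlap. Glucocorticoid and estrogen supply was higher in 4 of 7, with a median of 0.05. Sult1e1, which inactivates estrogens by sulfation, had 6.64 and 8.41 in vasectomy, against 6.28 and 7.60 in sham, with mouse 2 higher in both groups, and Hsd17b4 had 8.49 and 8.27 in vasectomy, against 8.46 and 8.06 in sham.

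Target lists had median differences between -0.13 and 0.20. Glucocorticoid receptor targets were higher in 9 of 12, with a median of 0.03. Sgk1, a kinase of sodium transport, had 8.43 and 9.64 in vasectomy, against 8.66 and 8.56 in sham, so that vasectomy mouse 2 stood apart as it did for Nr4a3. The metallothionein genes differed by 0.03 each, Mt1 with 11.28 and 11.12 in vasectomy and 11.18 and 11.16 in sham, and Mt2 with 12.65 and 12.45 in vasectomy and 12.54 and 12.50 in sham. LXR targets were higher in 6 of 8 (median 0.14), among them Scd1 with 9.36 and 8.83 in vasectomy and 9.34 and 8.68 in sham. Mylip, which degrades the LDL receptor, had 8.74 and 7.83 in vasectomy, against 9.0 and 8.28 in sham. PPAR targets were lower in 8 of 12 (median -0.13). Angptl4, an inhibitor of lipoprotein lipase, had 5.70 and 6.10 in vasectomy, against 6.08 and 6.24 in sham, while the oxidation genes Hadha (8.80 and 8.67 in vasectomy, 8.74 and 8.90 in sham) and Ech1 (8.84 and 8.86 in vasectomy, 8.83 and 8.78 in sham) differed by -0.09 and 0.05. Retinoic acid receptor targets were lower in 6 of 9 (median -0.05). Crabp2 had 4.57 and 6.32 in vasectomy, against 4.78 and 5.19 in sham, and Tgm2 had 7.73 and 7.59 in vasectomy, against 7.66 and 7.19 in sham. Vitamin D receptor targets were split 3 and 3, with a median of 0.00. Trpv6, an epithelial calcium channel, had 8.38 and 8.13 in vasectomy, against 9.37 and 7.62 in sham, which enclosed both vasectomy mice, and Atp2b1 had 8.41 and 8.48 in vasectomy, against 8.44 and 8.49 in sham.

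Thyroid hormone receptor targets were higher in 6 of 7, and 2 of the 7 lay higher without overlap, where 12.5% of all genes did. In 7 of 7 the highest array was vasectomy mouse 2, and the median of 0.20 was 0.06 without that mouse and 0.36 without vasectomy mouse 1. Me1, malic enzyme, had 6.48 and 6.62 in vasectomy, against 6.05 and 6.42 in sham. Klf9 had 8.20 and 8.25 in vasectomy, against 8.18 and 8.22 in sham. Of their receptor genes, Thra was highest in vasectomy mouse 1 instead, and Thrb was highest in sham mouse 1 and lowest in vasectomy mouse 2. Estrogen receptor targets were higher in 2 of 8 and lower in 4, with a median of -0.10. Igf1, a growth factor, had 6.45 and 7.09 in vasectomy, against 6.32 and 6.57 in sham. Cited2 had 9.92 and 8.71 in vasectomy, against 9.81 and 9.33 in sham, and Xbp1 had 9.18 and 9.09 in vasectomy, against 9.45 and 8.82 in sham. Immediate early genes other than NR4A were split 8 and 8, with a median of -0.02. These lists were small and their medians have no test.

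**Figure D5:**
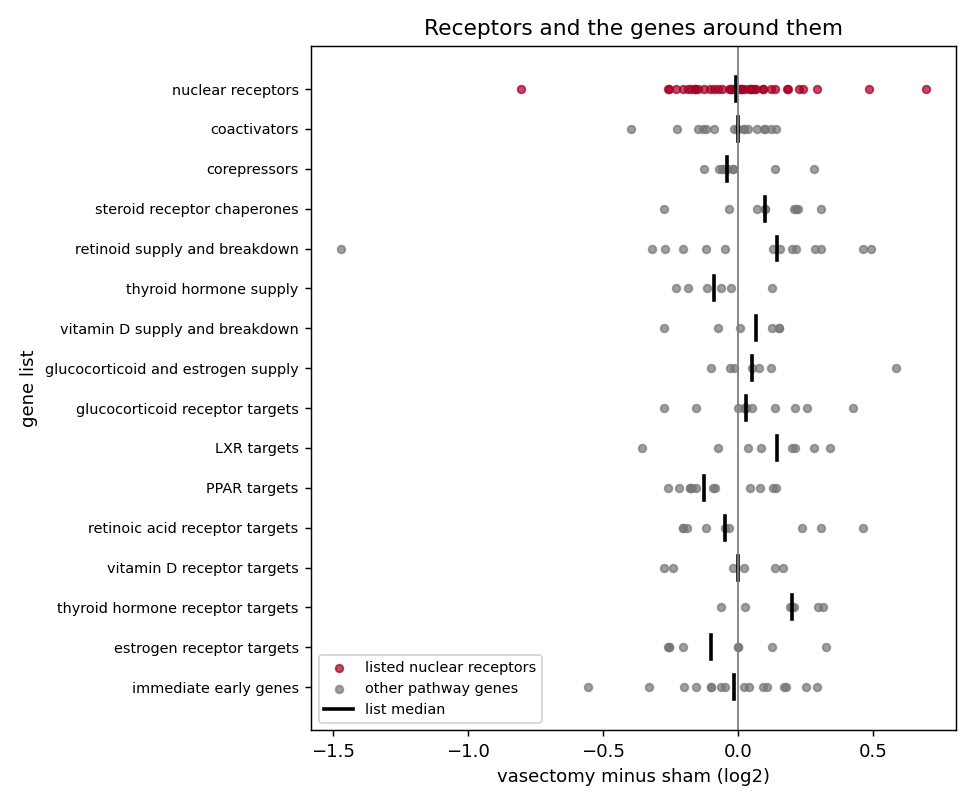
Vasectomy minus sham differences (log2, horizontal axis) of the 41 receptors and of 15 pathway lists, with 1 point per gene and a black bar for each list's median. List medians lie between -0.13 and 0.20, and the farthest point from 0 is Crabp1 at -1.47.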

How the data were processed

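Prostate RNA of 2 vasectomy and 2 sham mice was measured on 1 array per mouse. The authors deposited log2 values from RMA, run in Affymetrix Expression Console 1.3.1 with background subtraction, quantile normalization and probe summary. The log base is not stated and was taken as 2. Quantile normalization gives the arrays nearly equal distributions, so a shift of most genes could not be seen. The number of arrays limits the precision.

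Gene names came from the platform annotation, in which 23521 of 41345 probe sets had 1 symbol, 1820 several and 16004 no entry. Each gene was represented by its brightest probe set. Vasectomy was set against sham by limma (version 3.58.1, R 4.3.3), with Benjamini-Hochberg adjustment over 22180 genes, after the steps had been tested on simulated data. The methods' t-test left out 12 genes without spread within groups. Summed marker levels are log2 of summed linear signal.

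The receptors and the pathway and marker lists were chosen with earlier results of these data known. Named genes were every receptor above the stand-in, the 6 largest differences in each direction and, of each pathway list, the 2 brightest genes and, among those above the stand-in, that with the largest difference. Cyp24a1 and the luminal markers Sbp, Spink5, Msmb, Krt8, Pbsn, Tgm4 and Cd24a were named outside this rule, after their values were seen.

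Alternatives were other filters, scalings, probe choices, an intensity trend, array weights, the mouse number as a block and each array left out.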

Additional observations from a re-analysis of the deposited data

How the results depend on the processing

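No receptor and no gene was called at an adjusted p of 0.05 under any alternative run, including fits without 1 array. The differences of 12 receptors, recomputed 97 times over 9 alternatives, equalled the main value 86 times, mostly because those alternatives leave a difference of group means as it is, so they say nothing about its stability. The 11 others came from repeated quantile normalization and kept their direction. The lowest adjusted p was 0.965 by limma. Without 1 array the lowest was 0.845. Without vasectomy mouse 1 the difference of Pgr was 0.02 (over the arrays left out in turn, -0.53 to 0.02). Without vasectomy mouse 2 that of Nr2c2 was 0.06 (-0.43 to 0.06) and that of Nr4a3 was -0.78 (-0.78 to 2.17). The cause was not tested. The receptors without overlap numbered 4 higher (9.76%, beside 12.5% of all genes) and 3 lower (7.32%, beside 12.0%). They were 2 higher and 1 lower among genes above the median level, and 2 higher and 0 lower at a difference of at least 1.2-fold. Without 1 array they were 10 to 14 in either direction, where a lone mouse overlaps less easily. The shares of all genes under these other settings are not given here, so these counts are not a result about the receptors. Of 16 list medians, that of the receptors included, 2 were 0, 10 changed sign in at least 1 alternative (8 of them without 1 array) and 4 kept their sign.

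The mouse number as a replicate block gave 0 calls, and deviations of same-numbered mice correlated at 0.191 over genes. The study wrote of 2 pairs of mice but did not say how a pair was formed. The labels do not say that a shared number marks a pair, a litter or a day, and 2 numbers cannot settle it. By number, Rxrg differed by -0.79 and -0.82 (adjusted p = 0.965 with the block, by limma) and Nr4a3 by -0.92 and 2.31. With 2 arrays per group, differences of the size seen here could not be told from the spread between mice.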
